A study of Mus musculus with 5 samples.

Results

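Marker genes of spermatogonia and of the entry into meiosis, 10 in all, were followed in mouse testis after loss of Taf7l. They are Uchl1, Etv5, Pou5f1, Kit, Dmrt1, Dmrtb1, Sohlh1, Sohlh2, Stra8 and Rhox13. They were chosen by name, and every transcript row under these names was taken. This gave 10 genes with 20 transcript rows, among 22237 named genes with 47809 rows. All 20 rows were also found in the table of chromatin binding. The tissue was testis of 3-month-old mice. RNA was sequenced from Taf7l knockout males (Taf7l-/Y) and from wild-type males, in 1 library per genotype made from the mRNA of 6 pooled testis extracts, so animals were not measured one by one. Chromatin precipitated with an antibody to TAF7L or to RNA polymerase II (Pol II), or with non-specific IgG, gave 1 library each. These ChIP libraries are labelled wild type, although their shared protocol names chromatin of both genotypes, and the deposited binding scores have no IgG column. Taf7l is a germ cell paralogue of the gene for TAF7, a subunit of the general transcription factor TFIID. The design of the Taf7l allele was not given in the sources used here.

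Spermatogonia are the dividing germ cells at the base of the seminiferous tubule. In the mouse, undifferentiated spermatogonia, which include the stem cells, give rise to differentiating spermatogonia that carry the receptor KIT on their surface. Retinoic acid drives this step and later induces Stra8, which germ cells need to start meiosis. The bHLH factors SOHLH1 and SOHLH2 and the DM-domain factors DMRT1 and DMRTB1 control the passage between these stages. In an adult testis these cells are a minority beside spermatocytes and spermatids.

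Promoter sequences are shown for the members on which the binding data bear most. They were read from RefSeq (GRCm38.p6, another build than the mm9 of the deposited tables) and run from 250 bases before to 50 bases after an annotated start, 5′ to 3′ on the strand of the gene. Of the 10 members, 9 had a promoter in that table, with 13 starts in all. Dmrtb1 is shown with 2 starts because it was the only member with a TAF7L promoter score (chr4:107683540-107683839 and chr4:107684181-107684480, minus strand). Stra8 is shown as the gene that marks meiotic entry (chr6:34920698-34920997, plus strand), and Sohlh1 because it alone had no Pol II promoter score (chr2:25847199-25847498, minus strand). Capitals mark matches, on either strand, to any of 10 short motifs.
Dmrtb1, start 1: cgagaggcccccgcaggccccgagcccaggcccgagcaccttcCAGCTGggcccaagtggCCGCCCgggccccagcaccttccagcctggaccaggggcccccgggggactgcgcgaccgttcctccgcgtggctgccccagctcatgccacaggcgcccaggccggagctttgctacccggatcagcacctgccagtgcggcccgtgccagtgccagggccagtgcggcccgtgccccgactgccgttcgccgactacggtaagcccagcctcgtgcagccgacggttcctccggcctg
Dmrtb1, start 2: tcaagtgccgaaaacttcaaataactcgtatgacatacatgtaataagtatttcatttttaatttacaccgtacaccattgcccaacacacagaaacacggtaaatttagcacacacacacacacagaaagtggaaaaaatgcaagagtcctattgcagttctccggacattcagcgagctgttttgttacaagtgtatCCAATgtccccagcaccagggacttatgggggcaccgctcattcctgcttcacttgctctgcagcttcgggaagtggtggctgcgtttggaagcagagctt
Stra8: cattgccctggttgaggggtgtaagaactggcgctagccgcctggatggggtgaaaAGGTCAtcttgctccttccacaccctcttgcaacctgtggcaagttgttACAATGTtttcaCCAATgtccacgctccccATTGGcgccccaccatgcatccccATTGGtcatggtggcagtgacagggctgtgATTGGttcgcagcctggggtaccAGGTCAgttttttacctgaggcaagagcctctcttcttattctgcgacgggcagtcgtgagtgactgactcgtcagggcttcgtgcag
Sohlh1: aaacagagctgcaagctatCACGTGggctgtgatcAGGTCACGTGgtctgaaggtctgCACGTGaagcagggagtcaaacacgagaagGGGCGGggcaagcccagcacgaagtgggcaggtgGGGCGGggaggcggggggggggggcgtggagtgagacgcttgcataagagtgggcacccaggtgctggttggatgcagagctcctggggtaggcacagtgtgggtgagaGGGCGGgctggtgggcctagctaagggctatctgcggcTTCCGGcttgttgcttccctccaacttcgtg

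The motifs searched were the TATA box TATAAA, the CCAAT box CCAAT, the retinoic acid receptor core AGGTCA, the DMRT1 core ACATTGT, the ETS core CCGGAA, the E-boxes CAGCTG and CACGTG of bHLH factors, the CRE core TGACGT, the GC box GGGCGG and the POU octamer core ATGCAAA. Positions are counted from the annotated start, with bases before it negative. The Stra8 window held AGGTCA at -194 and at -38, 4 CCAAT boxes and 1 match to ACATTGT. Among all 32851 RefSeq promoters of the same length, 16.3% held AGGTCA, 37.4% held CCAAT and 2.96% held ACATTGT. The Sohlh1 window held CACGTG at -231, -211 and -192, of which the middle copy overlaps an AGGTCA. This E-box stood in 7.15% of all promoters and in no other member's window. The Dmrtb1 windows held a CAGCTG and a GC box at start 1 and a CCAAT box at start 2. No member window held TATAAA, which stood in 13.6% of all promoters, and the Uchl1 window held none of the 10 motifs. Start 1 of Dmrtb1 was rich in G and C, at 74.7% of its bases, whereas start 2 had 44.7% and the median of all promoters was 52.7%. A match is a string of letters and not a measured site.

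In the expression data, 9 of the 10 markers had a higher signal in the knockout library than in the wild-type library. Of all named genes with a mean signal of 1 or more, 72.5% did. Dmrtb1 had near-equal values and turned lower when the knockout library was rescaled to a median change of 0. Sohlh2, Stra8, Rhox13 and Dmrt1 passed 2-fold higher, beside 7.28% of all such genes. Pou5f1 had the lower signal in the knockout, and no member passed 2-fold lower, beside 7.18%. Values are the authors' mean signal per transcript, with the table's own standard deviation after ±. The header names neither the unit nor what that standard deviation was taken over. With 1 library per genotype it is no replicate spread, and no difference given here has a replicate check or a p-value. Overlap or separation of ranges of mean ± SD is given as description and cannot show whether a difference between genotypes is reliable. Change is log2((knockout + 1)/(wild type + 1)), a scale on which low genes change less than their plain ratio. A gene is represented by its row with the highest mean of both libraries.

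The 2 libraries differed as wholes. Of the 12723 named genes whose mean signal reached 1, 926 (7.28%) passed 2-fold higher and 914 (7.18%) passed 2-fold lower in the knockout, and 72.5% had a positive change. The median change was 0.40. Prm1, Prm2, Tnp1 and Tnp2, which package DNA in spermatids, made up 2.13% of the signal of named genes in the knockout and 11.2% in the wild type. When knockout values were multiplied by 0.711, which brings the median change to 0, 1.04% of genes passed 2-fold higher and 12.5% passed 2-fold lower. The labels give 100000000 to 200000000 reads per RNA library. Taf7l itself had a signal of 2.04 ± 0.60 in the knockout and 13.2 ± 1.56 in the wild type. All 10 members reached a mean of 1 and 7 reached a mean of 5.

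**Figure D1:**
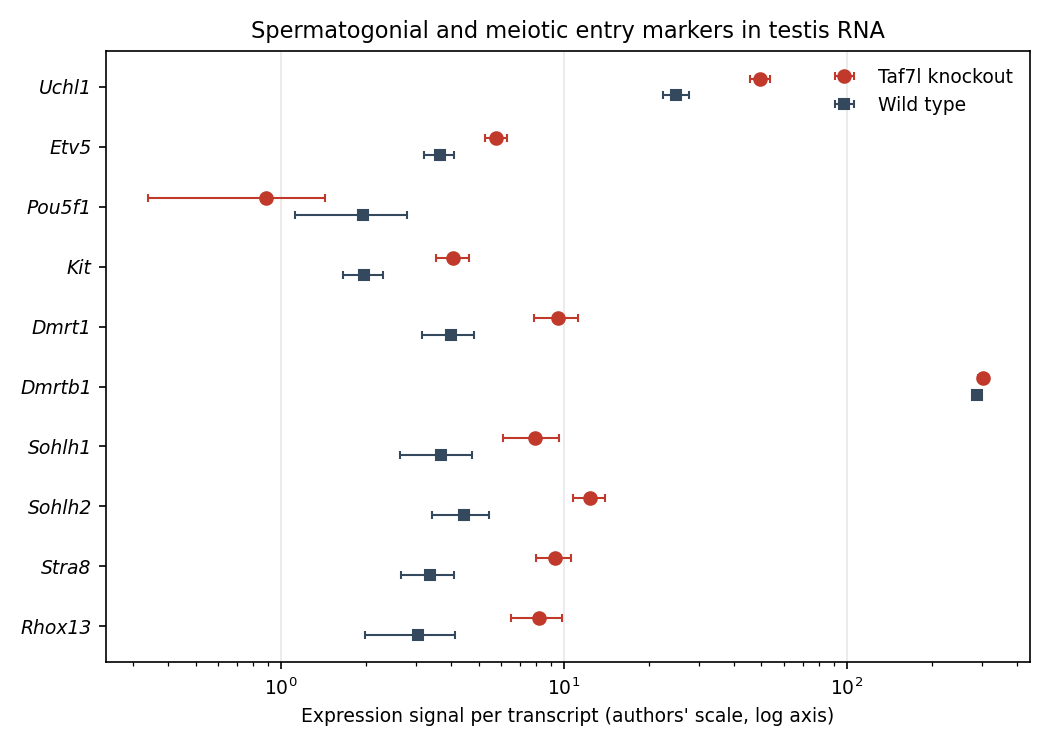
Expression signal of the 10 markers in the Taf7l knockout library (circles) and the wild-type library (squares) on a log axis, with bars for the standard deviation given in the authors' table. Dmrtb1 lies near 300 in each library, Uchl1 at 49.5 in the knockout and 25.045 in the wild type, and the others between 0.888 and 12.4.

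Among genes of undifferentiated spermatogonia, Uchl1 was the most abundant. It encodes a ubiquitin hydrolase long used to stain spermatogonia, and it also marks neurons. Its signal was 49.5 ± 4.06 in the knockout and 25.045 ± 2.58 in the wild type (chromosome 5, 67068131 to 67078473, in mm9 like all transcript positions below). The ratio was 1.98 and the change 0.95, just under the 2-fold line, and the ranges of mean ± SD were apart. A second row, which starts farther upstream, had 45.1 ± 4.27 in the knockout and 22.5 ± 2.60 in the wild type, a change of 0.97. Of all genes, 90.9% had a smaller change than Uchl1.

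Etv5 encodes an ETS factor needed for self-renewal of mouse spermatogonial stem cells, and Sertoli cells express it too. It had 5.78 ± 0.53 in the knockout and 3.66 ± 0.45 in the wild type (chromosome 16, 22381385 to 22439643), a change of 0.54. That lay 0.14 above the median of all genes. Its nearest relatives were scarce. Etv1 had 0.80 in the knockout and 0.48 in the wild type, and Etv4 had 0.13 in the knockout and 0.089 in the wild type, both below a mean of 1.

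Pou5f1 (Oct4), the pluripotency factor, was the only member with a lower signal in the knockout. Its longest row had 0.888 ± 0.55 in the knockout and 1.96 ± 0.83 in the wild type (chromosome 17, 35642983 to 35647722), a change of -0.65. The ranges of mean ± SD of the 2 libraries overlapped in all 3 Pou5f1 rows. One more row inside the gene, of 756 bp and named Oct-3/4, was no member by name and had 2.26 ± 2.19 in the knockout and 5.43 ± 3.30 in the wild type. Of all genes, 11.9% had a smaller change than Pou5f1. Pou5f1 has processed copies elsewhere in the genome, and the handling of shared reads was not given in the sources used here.

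Kit, the receptor for KIT ligand and the classical marker of differentiating spermatogonia, had a higher signal in the knockout in each of its 3 rows. The 2 rows that span the whole gene (chromosome 5, 75971011 to 76052746) had 3.72 ± 0.36 and 3.67 ± 0.36 in the knockout, against 1.67 ± 0.25 for either row in the wild type. The row with the highest mean covers only the last 7629 bp of the gene (76045118 to 76052746) and had 4.08 ± 0.55 in the knockout and 1.98 ± 0.32 in the wild type. Mouse spermatids are known to make a truncated KIT transcript from the distal part of the gene. The knockout to wild-type ratio was 2.06 for the short row and 2.20 and 2.22 for the whole-gene rows. With the pseudocount the changes were 0.77 for the short row and 0.81 and 0.82 for the others, all under the 2-fold line. The short row lies within the whole-gene rows, so it does not isolate the truncated transcript. Leydig cells and mast cells also express Kit.

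Dmrt1 encodes a DM-domain factor of spermatogonia and Sertoli cells that holds back meiosis in mouse spermatogonia. Its rows had 9.54 ± 1.69, 8.73 ± 1.05 and 7.52 ± 0.88 in the knockout, against 3.99 ± 0.83, 3.79 ± 0.65 and 3.21 ± 0.495 in the wild type. The row with the highest mean ends at 25634755 and the others at 25678818, all from 25580195 on chromosome 19. The changes ran from 1.02 to 1.08, so that all 3 rows lay past 2-fold. Of all genes, 95.3% had a smaller change than Dmrt1.

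Dmrtb1 (Dmrt6), which promotes the switch of mouse spermatogonia to the meiotic programme, had a smaller change. Its main row had 304 ± 11.7 in the knockout and 288 ± 8.56 in the wild type (chromosome 4, 107348894 to 107356182), a change of 0.08 with overlapping ranges of mean ± SD. A longer row, to 107356767, had 145 ± 5.74 in the knockout and 136 ± 4.03 in the wild type. The level thus differed between the 2 rows by a factor of 2.09 in the knockout and 2.12 in the wild type, while the change of the longer row was 0.10. The main row lay 0.33 under the median change of all genes. Dmrtb1 made up 73.9% of the summed signal of the 10 members in the knockout and 84.9% in the wild type. Its signal exceeded that of 98.4% of all genes in the knockout and 98.0% in the wild type. Which cells carry this signal cannot be read from RNA of the whole testis.

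Sohlh1 and Sohlh2 encode bHLH factors required for spermatogonial differentiation in the mouse. Sohlh2 had 12.4 ± 1.59 in the knockout and 4.445 ± 1.01 in the wild type (chromosome 3, 54985965 to 55013879), a change of 1.30 and the largest of the 10. Sohlh1 had 7.89 ± 1.76 in the knockout and 3.70 ± 1.05 in the wild type (chromosome 2, 25698516 to 25702768), a change of 0.92. The plain ratios were 2.78 for Sohlh2 and 2.13 for Sohlh1, so both were past 2-fold without the pseudocount. Of all genes, 98.3% had a smaller change than Sohlh2 and 89.3% a smaller one than Sohlh1.

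Stra8, whose retinoic acid-induced product is needed for germ cells to enter meiosis, had a higher signal in the knockout in both its rows. They share 1 span (chromosome 6, 34870636 to 34889342) and had 9.31 ± 1.33 and 8.41 ± 1.19 in the knockout, against 3.37 ± 0.71 and 3.12 ± 0.78 in the wild type. The changes were 1.24 and 1.19, both past 2-fold. Rhox13, an X-linked homeobox gene of mouse differentiating spermatogonia and early spermatocytes, had 8.21 ± 1.68 in the knockout and 3.05 ± 1.06 in the wild type (chromosome X, 35474016 to 35483143), a change of 1.18. Of all genes, 97.9% had a smaller change than Stra8 and 97.4% a smaller one than Rhox13.

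Of the 10 members, 4 passed 2-fold higher, beside 7.28% of all genes, and none passed 2-fold lower, beside 7.18%. The 4 were Sohlh2, Stra8, Rhox13 and Dmrt1, with ratios from 2.39 to 2.78. Uchl1 and Sohlh1, with changes of 0.95 and 0.92, stood just outside the line and Dmrt1 just inside it. Counted by transcript, 7 of 19 member rows with a mean of 1 or more passed 2-fold higher and none lower, beside 5.01% and 5.91% of all such rows. These 7 rows belong to the same 4 genes, and overlapping rows of a gene can share reads, so they add no separate evidence. The median of the 10 changes was 0.94, and that of all genes 0.40. With a pseudocount of 0.1, Kit and Sohlh1 joined the higher genes, which made 6, and Pou5f1, at -1.06, passed 2-fold lower. With that pseudocount 16.3% of all genes passed higher and 9.03% lower. After the knockout library was rescaled, no member passed 2-fold in either direction, beside 1.04% of all genes higher and 12.5% lower. The rescaled changes ran from -0.86 for Pou5f1 to 0.85 for Sohlh2, with a median of 0.48, and Dmrtb1 turned negative, at -0.41. In RNA of a whole organ, fewer cells of a type and less RNA per cell cannot be told apart, and neither can more cells and more RNA per cell.

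**Figure D2:**
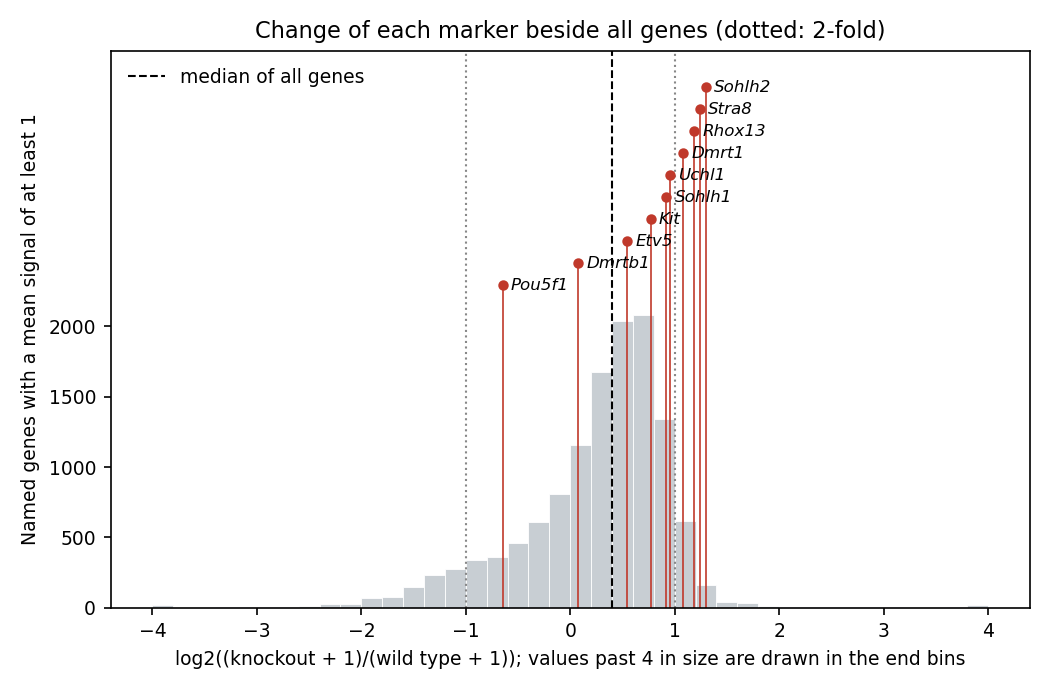
Histogram of the change of 12723 named genes, with a red line at the change of each marker (line height has no meaning), a dashed line at the median of all genes and dotted lines at 2-fold. Sohlh2, Stra8, Rhox13 and Dmrt1 lie right of the upper dotted line, and Pou5f1 and Dmrtb1 lie left of the dashed line.

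The order of levels was similar in both libraries. On the authors' scale, which resembles a value per transcript length, the order from the top began with Dmrtb1, Uchl1, Sohlh2 and Dmrt1 in each, and Kit and Pou5f1 came last. Sohlh2, Dmrt1, Sohlh1, Etv5, Stra8 and Rhox13 lay between 5.78 and 12.4 in the knockout and between 3.05 and 4.445 in the wild type. Among these 6, the ranges of mean ± SD of neighbours in the order overlapped in each library. In the wild type the ranges of all 6 overlapped each other. In the knockout the range of Sohlh2 lay above those of Stra8, Rhox13, Sohlh1 and Etv5, and the range of Etv5 lay below those of Dmrt1, Stra8 and Rhox13. Stra8 stood at place 5 in the knockout and 7 in the wild type, and Etv5 at place 8 in the knockout and 6 in the wild type. Summed over the 9 members other than Dmrtb1, the signal was 108 in the knockout and 51.2 in the wild type, a ratio of 2.10.

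The retinoic acid list holds 21 genes for synthesis, binding, breakdown and reception of the ligand, of which 16 reached a mean of 1. Of these, 3 passed 2-fold higher and none lower, and the median change was 0.60. Beside this and each list count below stand the shares of all genes, 7.28% higher and 7.18% lower. Aldh1a1, a retinal dehydrogenase of Sertoli and Leydig cells, had 184 ± 8.996 in the knockout and 82.6 ± 4.14 in the wild type. Crabp1, a retinoic acid-binding protein, had 26.3 ± 4.63 in the knockout and 8.79 ± 2.39 in the wild type, and was the 1 gene still past 2-fold after rescaling. The retinol carrier Rbp4 had 5.98 ± 1.41 in the knockout and 2.19 ± 0.89 in the wild type. Among the receptors, Rara had 3.36 ± 0.36 in the knockout and 1.93 ± 0.25 in the wild type, and Rarg 1.78 ± 0.41 in the knockout and 0.775 ± 0.24 in the wild type. Rxra, the most abundant receptor of the list, went the other way, with 7.37 ± 0.87 in the knockout and 9.22 ± 0.87 in the wild type and ranges of mean ± SD apart. Rarb had the most negative change, with 1.197 in the knockout and 2.35 in the wild type, but its standard deviations were 4.08 in the knockout and 5.66 in the wild type.

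Most stem cell markers were too scarce to compare: of 22 genes of the stem cell and GDNF list, 8 reached a mean of 1. Zbtb16, a transcription factor of undifferentiated spermatogonia, had 1.05 ± 0.33 in the knockout and 0.326 ± 0.20 in the wild type. Gfra1, the GDNF receptor, had 0.311 in the knockout and 0.217 in the wild type, and Nanos2 0.073 in the knockout and 0.064 in the wild type. Bcl6b and Lhx1, also under a mean of 1, alone went the other way. Bcl6b had 0.789 ± 0.303 in the knockout and 1.175 ± 0.376 in the wild type, and Lhx1 had 0.605 ± 0.317 and 0.839 ± 0.407. Id4, which reached the minimum, had 21.4 ± 2.84 in the knockout and 14.2 ± 1.69 in the wild type, a change of 0.56. Of the 8, Dazl, an RNA-binding protein of germ cells, alone passed 2-fold higher, with 34.5 ± 2.69 in the knockout and 12.3 ± 1.55 in the wild type. Ddx4, a helicase of the whole germ line and the most abundant of the list, had 83.6 ± 2.95 in the knockout and 72.1 ± 3.27 in the wild type. None passed 2-fold lower and the median change was 0.77. Csf1r, one of the 8, also stands in the macrophage list.

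Genes around KIT included its ligand. Kitl, made by Sertoli cells, had 6.69 ± 2.06 in the knockout and 2.76 ± 1.47 in the wild type, a change of 1.03. Grb2, an adaptor of receptor kinases, had 5.48 ± 0.65 in the knockout and 2.24 ± 0.50 in the wild type, a change of 1.00. These 2 passed 2-fold higher among 10 measured genes of 13 listed, none passed lower, and the median was 0.74. Akt1, the most abundant, had 15.3 ± 1.14 in the knockout and 8.72 ± 0.80 in the wild type, and Cbl, which tags activated receptors for degradation, had the smallest change at 0.32.

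In the DMRT family, Dmrt1 alone passed 2-fold higher among 8 measured genes of 9, none passed lower, and the median was 0.53. Dmrtc2, a germ cell gene of meiotic prophase, had 47.5 ± 4.08 in the knockout and 33.4 ± 2.87 in the wild type. Dmrta1 had 7.83 ± 1.02 in the knockout and 3.585 ± 0.62 in the wild type. Dmrta2 and Dmrt3, the neighbour of Dmrt1, had negative changes. Dmrta2 had 3.22 ± 0.76 in the knockout and 3.83 ± 0.83 in the wild type, and Dmrt3 had 1.15 ± 0.46 in the knockout and 1.86 ± 0.61 in the wild type. The X-linked copies Dmrtc1a and Dmrtc1b, which can share reads, had 13.1 and 7.12 in the knockout, against 7.15 and 4.50 in the wild type. Dmrt2 stayed under a mean of 1.

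Within the X-linked RHOX homeobox cluster, Rhox13 alone passed 2-fold higher of 6 genes that reached a mean of 1, among 14 in the table. Rhox8, a Sertoli cell gene and the most abundant, had 31.7 ± 3.69 in the knockout and 19.1 ± 2.54 in the wild type. Rhox11 passed 2-fold lower, with 1.32 ± 1.105 in the knockout and 3.97 ± 1.62 in the wild type. Both directions occurred inside the cluster. Among the 6, the ranges of mean ± SD were apart for Rhox13 and Rhox8 only. Those of Rhox11, Rhox7, Rhox1 and Rhox3a overlapped. Rhox7 had 2.28 ± 1.13 in the knockout and 0.85 ± 0.57 in the wild type, Rhox1 had 1.76 ± 0.965 in the knockout and 0.475 ± 0.55 in the wild type, and Rhox3a had 1.13 ± 0.61 in the knockout and 1.71 ± 0.52 in the wild type. Near-identical Rhox copies can share reads. The median of the 6 changes was 0.76, and none of the 6 had a TAF7L promoter score.

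Among POU genes, 5 of 15 reached a mean of 1, none passed 2-fold higher, 1 other than Pou5f1 passed 2-fold lower, and the median was 0.53. Pou5f2, a testis relative of Pou5f1, had 36.8 ± 3.49 in the knockout and 24.0 ± 2.55 in the wild type, and Pou6f1 had 10.1 ± 0.71 in the knockout and 4.796 ± 0.50 in the wild type.

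Of 21 measured genes of meiotic entry and early prophase, 2 passed 2-fold higher and 1 passed lower, and the median was 0.72. Meioc, which acts with Ythdc2 in the mouse to establish meiosis, had 32.9 ± 1.98 in the knockout and 18.1 ± 1.34 in the wild type, and Ythdc2 had 5.04 ± 0.55 in the knockout and 2.18 ± 0.38 in the wild type. Rec8, the meiotic cohesin gene induced by retinoic acid, had 24.6 ± 2.18 in the knockout and 39.1 ± 3.61 in the wild type, opposite in direction to Stra8. Sycp1, of the transverse filaments of the synaptonemal complex, and Hormad1, of the chromosome axis, were the 2 higher genes. Sycp1 had 27.2 ± 1.47 in the knockout and 12.5 ± 1.25 in the wild type, and Hormad1 had 25.7 ± 2.07 in the knockout and 11.7 ± 1.64 in the wild type. Syce2, of the central element, passed lower with 30.4 ± 2.78 in the knockout and 71.05 ± 4.83 in the wild type, and Syce1, the most abundant, had 194 ± 8.82 in the knockout and 212 ± 9.91 in the wild type. Over the 8 pathway lists together, 10 of 75 genes passed 2-fold higher, Dmrt1 and Rhox13 among them, beside 7.28% of all genes, and 3 passed lower, beside 7.18%. After rescaling, 1 passed higher, beside 1.04%, and 4 passed lower, beside 12.5%.

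Marker lists of other cells were read in the same libraries. As deposited, 7.28% of all genes passed 2-fold higher and 7.18% lower, and after rescaling 1.04% passed higher and 12.5% lower. Sertoli markers had 4 of 9 measured genes past 2-fold higher, a median change of 0.93 and a summed signal of 1462 in the knockout and 760 in the wild type. Peritubular markers had 3 of 5 past 2-fold higher, a median of 1.00 and sums of 102 in the knockout and 46.2 in the wild type. Macrophage markers had 2 of 5 past 2-fold higher, a median of 0.94 and sums of 77.3 in the knockout and 32.3 in the wild type. The median of 0.94 over the 10 members stood beside 0.93 to 1.00 in the somatic lists, Leydig included, and 0.87 in the spermatocyte list. After rescaling, these medians were 0.48 for the members and 0.42 for spermatocyte markers. They were then 0.44 for Sertoli, 0.52 for Leydig, 0.54 for peritubular and 0.58 for macrophage markers. Leydig markers had 3 of 6 past 2-fold higher and sums of 1526 in the knockout and 1894 in the wild type. Insl3 and Star had negative changes, within 2-fold as deposited and past 2-fold lower after rescaling, at -1.17 for Insl3 and -1.395 for Star. Spermatocyte markers had 2 of 8 past 2-fold higher, a median of 0.87 and sums of 3093 in the knockout and 3291 in the wild type. This list shares Sycp1, Sycp3, Dmc1, Spo11 and Hormad1 with the early prophase list. Its 2 higher genes are again Sycp1 and Hormad1, so the 2 lists are not independent. All 7 spermatid markers passed 2-fold lower, with a median of -2.51 and sums of 11660 in the knockout and 65010 in the wild type. Genes of the epididymal duct, which adjoins the testis, were read as well. They had 3 of 4 measured past 2-fold higher and sums of 130 in the knockout and 1.603 in the wild type. Most of the knockout sum was Crisp1, at 75.9 in the knockout and 0.042 in the wild type, and Defb28, at 49.6 and 0.183. Rnase10 differed little, at 1.58 in the knockout and 1.36 in the wild type. Lcn5, at 0.058 and 0, and Lcn8, at 0.014 and 0.013, stayed under a mean of 1. After rescaling, the markers past 2-fold higher were 1 in the Sertoli list, 2 in the Leydig list, 0 in the peritubular, macrophage and spermatocyte lists and 3 in the epididymal list, and all 7 spermatid markers were past 2-fold lower. The part of cell composition in the values of the members was not tested.

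**Figure D3:**
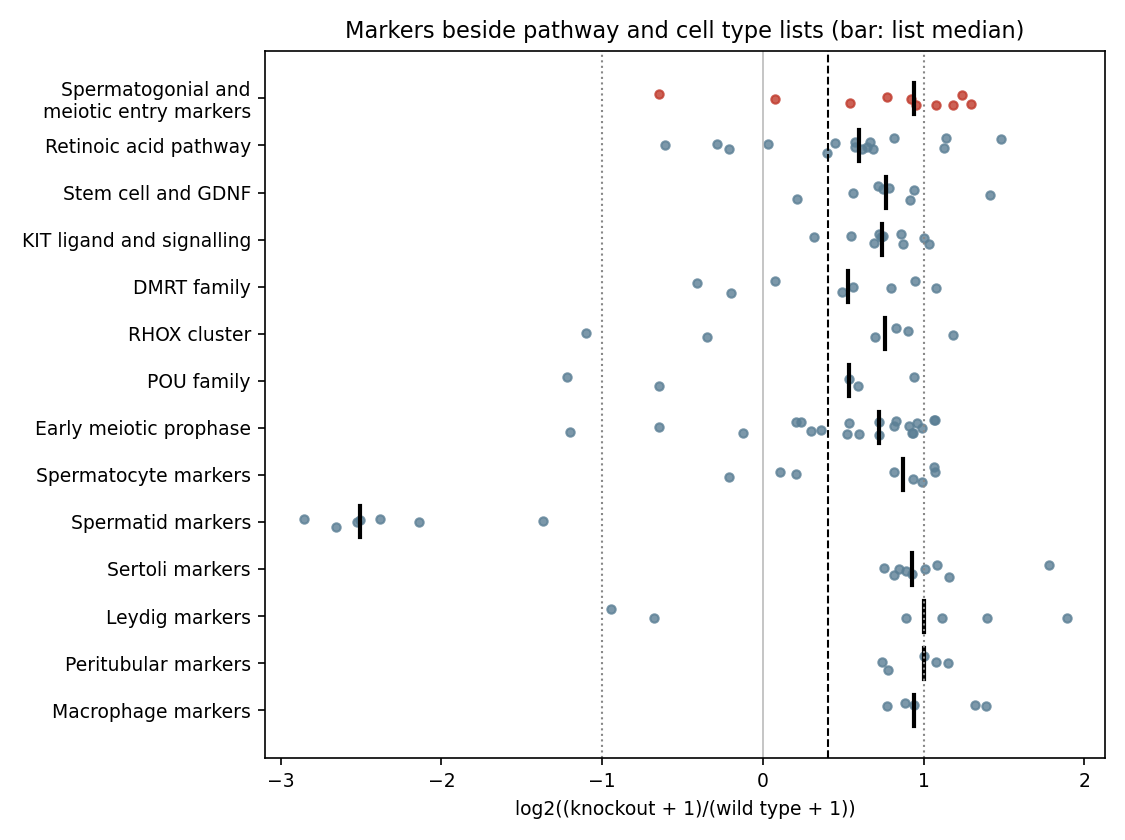
Change of each gene with a mean signal of 1 or more, for the 10 markers (top, red), 7 pathway lists (of which the DMRT, RHOX and POU lists include members) and 6 marker lists of other cell types. The spermatocyte list shares genes with the early prophase list, and the macrophage list shares Csf1r with the stem cell list. Black bars are list medians, the dashed line is the median of all genes and dotted lines are at 2-fold. The bar of the 10 markers, at 0.94, lies near those of the spermatocyte, Sertoli, Leydig, peritubular and macrophage lists, and spermatid markers lie far left.

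In the binding scores of wild-type testis, Dmrtb1 was the only member of 10 with a TAF7L promoter score, at 80.8, beside 54.5% of all genes with one. Pol II was scored at the promoter of 9 of 10 members, beside 85.8% of all genes. The scores are the authors', and the header defines neither them nor the position classes promoter, proximal and distal. The Dmrtb1 score exceeded that of 61.5% of the genes with a TAF7L promoter score, whose median was 71.9. The same 80.8 stood in the proximal class of the longer Dmrtb1 row, and the main row had 32.6 there.

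TAF7L was scored near Kit and Stra8 outside the promoter class. Kit had 37.4 in the proximal class of its whole-gene rows and 56 in the distal class of its short row. Stra8 had 71.9 in the proximal and 70 in the distal class. With Dmrtb1 this made 3 of 10 members in the proximal class, beside 33.7% of all genes, and 2 of 10 in the distal class, beside 53.7%. The Stra8 value of 71.9 was equal to the TAF7L promoter score of Wdr91, a gene 9805 bp away, and its proximal Pol II score of 323 was equal to the Wdr91 promoter score. Wdr91 had signals of 3.67 ± 0.73 in the knockout and 1.75 ± 0.56 in the wild type. The other 7 members had no TAF7L score in any class, so that 3 of 10 had one, beside 77.7% of all genes.

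Pol II promoter scores were below the median of scored genes, 374, at 8 of the 9 scored members. Etv5 had the highest, 575, above 74.1% of scored genes, while its RNA signal was among the lower ones of the 10. Dmrtb1 followed with 301 and Kit with 269. Uchl1 had 149 on the row that starts farther upstream and 129 on its main row. The 149 was also the promoter score of an overlapping transcript named by a cDNA accession. Dmrt1 had 120, Rhox13 95.9, Sohlh2 85.4, Stra8 69.7 and Pou5f1 46.2. Sohlh1 had 0 in the promoter and proximal classes and 80.2 in the distal class, a value also given to the promoter of Glt6d1, 27160 bp away. In the proximal class 8 of 10 members had a Pol II score, beside 63% of all genes, and in the distal class 6 of 10, beside 77.1%. All 10 had one in some class, beside 95.9%.

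Other scores at members were also equal to the promoter score of a neighbour. The distal Pol II score of 319 at Sohlh2 equalled the promoter score of A730037C10Rik, 9108 bp away. That gene had 5.82 ± 0.68 in the knockout and 15.9 ± 1.255 in the wild type, the opposite direction to Sohlh2. The Pol II score of 313 in the proximal class of the short Pou5f1 rows equalled the promoter score of Tcf19 and Cchcr1. Tcf19 had 1.103 ± 0.35 in the knockout and 0.395 ± 0.22 in the wild type, and Cchcr1 had 102 ± 4.95 in the knockout and 128 ± 3.88 in the wild type. The Rhox13 promoter score of 95.9 appeared as a distal score of Rhox12, which had 0.055 in the knockout and 0.031 in the wild type. Equal scores were sought within 100 kb on the same chromosome, and transcripts named by a cDNA accession were left out of that search.

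**Figure D4:**
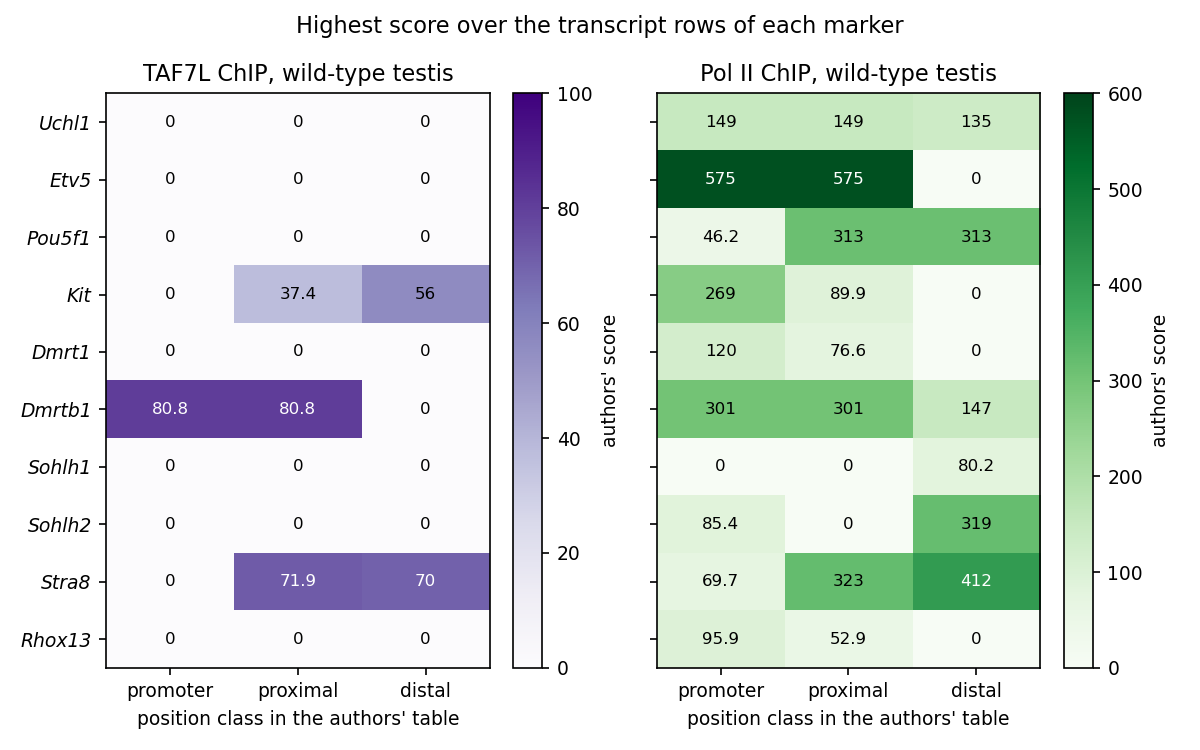
Highest TAF7L score (left) and Pol II score (right) over the transcript rows of each marker, by position class, in wild-type testis, with the score written in each cell and each panel on its own colour scale. TAF7L scores are 0 in all classes for 7 of 10 markers, and 80.8 at the promoter of Dmrtb1.

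Changes were also set beside promoter scores over all genes. The 6938 genes with a TAF7L promoter score had a median change of 0.43, with 5.13% past 2-fold higher and 3.13% past 2-fold lower. The 4003 genes with Pol II but no TAF7L there had a median of 0.45, with 10.0% past 2-fold higher and 11.2% past 2-fold lower. Dmrtb1, with both, had a change of 0.08. Of the 8 members with Pol II but no TAF7L, 4 passed 2-fold higher and none lower. Sohlh1, without either, had a change of 0.92. With 1 member holding a TAF7L promoter score, no comparison of members by that score was made.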

How the data were processed

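The 10 members, gene lists and motifs were chosen with earlier results of these data known. Per the submitters' processing notes, Bowtie, TopHat and Cufflinks were used on build mm9, and versions, strand, peak caller and use of IgG were not given in the sources used here. Per the file headers, the authors deposited a signal per transcript (mean and standard deviation in each genotype, unit not named), a log2 value of wild type over knockout, and a ratio of that deviation to the mean. Only the signal was analysed. The authors also deposited, for 3 position classes, a score of TAF7L and of Pol II for each transcript, where 0 was taken as no score.

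Of 55350 transcript rows, 7541 named by a cDNA accession were left out. Older symbols were merged through a RefSeq table, except for members. Genes were compared at a mean of 1 or more and called at 2-fold on log2((knockout + 1)/(wild type + 1)). With 1 library per genotype no test was made. A promoter score in any row counted for its gene. Alternatives were other pseudocounts, 3 rescalings, other rows, minimum means and folds, and other score rules. Named genes are the members, list members with the highest mean or largest change either way, measured DMRT, RHOX and ETV genes, genes sharing a member's scores, and Taf7l. One list gene that the rule names is not reported here. Other list genes were chosen after their values were seen. Depth is known only as the labels' 100000000 to 200000000 reads per RNA library. Python 3.11 and pandas 2.3.3 were used.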

Additional observations from a re-analysis of the deposited data

How the results depend on the processing

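The count of 4 members past 2-fold higher was 0 after knockout values were rescaled to bring the median change to 0, and 7 at 1.5-fold. It was 4 to 6 under the other alternatives run (pseudocounts of 0.1 and 0.001, both total-signal scalings, averaged or lowest rows, minimum means of 1 and 5). The count of 0 past 2-fold lower was 1 with a pseudocount of 0.1 or 0.001 and at 1.5-fold, each time Pou5f1. As deposited, 7.28% of all genes passed 2-fold higher and 7.18% lower. With a pseudocount of 0.1 these shares were 16.3% and 9.03%, and after rescaling to a median change of 0 they were 1.04% and 12.5%. For the pseudocount of 0.001, total-signal scalings, other rows, minimum mean of 5 and 1.5-fold no such share was computed. The counts under those alternatives thus have no background beside them. The median change of 0.94 was 1.04 with a pseudocount of 0.1, 1.07 with 0.001, 0.48 after rescaling and 1.08 over the 7 members that reached a mean of 5. Members with a TAF7L promoter score numbered 1, or 3 with the proximal class added. Members with a Pol II promoter score numbered 9, or 1 at a score no lower than the median of scored transcripts. For these other score rules no share of all genes was computed. In the pathway lists the 10 higher genes were 1 after rescaling, and the 3 lower genes were 1 at a minimum mean of 5. Taking Kit by its longest row or Pou5f1 by the Oct-3/4 row, or leaving out Dmrtb1, all chosen after seeing the data, left the counts at 4 and 0. No paired analysis was possible because each genotype has 1 library. For the same reason no spread between animals could be set beside any value.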
